A study of Homo sapiens with 6 samples.

Results

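The genes described here are the HOX genes of the 4 clusters, as far as the arrays and the platform annotation name them. They were taken as every probe set whose annotation gives exactly 1 gene symbol made of HOX, a cluster letter and a number, and each gene was represented by its brightest probe set, judged by the average of all 6 arrays. This gave 28 of the 19775 genes tested, with 1 gene of the A cluster (HOXA2), 10 of the B cluster, 9 of the C cluster and 8 of the D cluster. The other genes of the A cluster were not analysed here, and HOXD3 was left out because its probe sets also carry the symbol HOXD4.

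The RNA came from MCF-10A, an immortalized and nontransformed line of human mammary epithelial cells grown in MEGM medium without GA-1000, and was hybridised to 6 Affymetrix U133 Plus 2.0 arrays. There were 3 control arrays and 3 arrays of cells made to overexpress MBD2. In the labels this treatment is MBD2 transfection, whereas the study's methods describe infection with a lentivirus for MBD2. According to the methods, the virus was packaged in HEK293 cells with the plasmids pMD2G-VSVG and pCMV-R8.91. The labels call the controls non-infected, whereas the study's methods describe an empty virus, so whether the controls had met a virus is not settled, and the labels call the 3 arrays of a group technical replicates, whereas the methods speak of biological ones. All 6 arrays come from 1 cell line, and nothing states that the arrays of a group stem from different cultures, which means that p-values here reflect only how these arrays vary and that this variation may be technical.

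HOX genes encode homeodomain transcription factors that give cells of the embryo their position along the body axis. They lie in clusters whose order along the chromosome follows the order of their domains in the body, so that low-numbered genes act towards the head and high-numbered genes towards the tail. In adult cells, among them mammary epithelium, the pattern is kept by Polycomb proteins, which silence the clusters, and by trithorax proteins, which keep them active. HOX proteins bind DNA together with TALE homeodomain proteins of the PBX and MEIS families. MBD2 binds methylated CG dinucleotides and brings the NuRD repressor complex to them.

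The CG content of HOX gene starts differs widely, and 1 start is shown because 3 members of the C cluster share it. In the RefSeq annotation of GRCh38.p14, HOXC4, HOXC5 and HOXC6 begin at the same base of chromosome 12, position 54016888. The 250 bases before that start, at chr12:54016638-54016887 on the plus strand, hold 14 CG dinucleotides, which are in capitals.
HOXC4 and HOXC5: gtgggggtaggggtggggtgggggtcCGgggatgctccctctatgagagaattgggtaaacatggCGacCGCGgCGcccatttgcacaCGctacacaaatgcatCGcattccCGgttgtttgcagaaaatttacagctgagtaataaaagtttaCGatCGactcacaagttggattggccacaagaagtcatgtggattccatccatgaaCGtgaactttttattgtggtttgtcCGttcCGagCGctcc
RefSeq windows of 300 bases, 250 before the start and 50 after it, were on hand for 11 of the 28 members, and 10 of these windows were distinct. CG was counted on 1 strand, since it reads the same on both. The median window of the members held 21 CG dinucleotides, against 14 in the median of all 35116 windows, and 7 of the 10 distinct windows lay above that median. HOXD1 had 36 and HOXD8 had 34, counts that 12.7% and 15.6% of all windows reach. HOXD4 had 4, which 75.5% of windows reach. HOXA2 and HOXB1 had 11 each, and HOXC4 and HOXC5 had 15. These counts describe the sequence only, and neither methylation nor MBD2 binding at these starts was measured here.

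Before the HOX genes are described, 1 check of the labels and 2 features of the arrays are given. The MBD2 transcript had log2 values of 8.92, 9.03 and 9.68 in control arrays 1 to 3 and of 12.17, 11.72 and 12.50 in MBD2 arrays 1 to 3, which is 2.92 higher on the log2 scale (adjusted p = 0.0119, limma). Control arrays 1 and 2 differed by more than 2-fold at only 5 genes and MBD2 arrays 2 and 3 at 95, whereas control arrays 1 and 3 differed at 1572 and MBD2 arrays 1 and 2 at 2877. The spiked hybridization controls averaged 10.72 to 11.09 on the log2 scale on the control arrays and MBD2 array 1, and 9.72 and 9.79 on MBD2 arrays 2 and 3. The 5 basal epithelial markers measured averaged 11.82 to 12.87 on the control arrays and 12.20 to 12.46 on the MBD2 arrays, with KRT5 and KRT14 below the controls on all MBD2 arrays (log2 fold changes of -1.26 and -0.56, neither called) and ITGB4 above them on all (0.81, not called). The averages for markers of endothelial cells lay between 4.78 and 4.95, of leukocytes between 4.26 and 4.62 and of HEK293 cells between 3.95 and 4.10 on all arrays. The average of the 8 fibroblast markers lay between 6.53 and 6.92 on the control arrays and between 6.35 and 8.10 on the MBD2 arrays. The part of the array differences in the results below was not tested beyond the settings given with them.

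Of the 28 HOX genes, HOXC9 was called higher in the MBD2 arrays and none was called lower. The call of HOXC9 was lost in 10 of 14 other settings. A gene was called when its adjusted p from limma was under 0.05 and its means were at least 1.5-fold apart. By that rule 1 of 28 members was higher, where 1.25% of all genes were, and 0 of 28 were lower, where 1.5% of all genes were. At an unadjusted p under 0.05, 2 members were higher, against 8.69% of all genes, and 2 were lower, against 9.59%, so that 14.3% of the members and 18.3% of all genes passed in either direction. With 28 members a single gene is 3.57% of them, so a count of 1 cannot be told from these background shares. In bulk RNA a lower level in every cell and a smaller share of cells that express a gene cannot be told apart.

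The means of 2 members, HOXC9 and HOXC6, were at least 1.5-fold apart, which is 7.14% of the members, against 18.4% of all genes. The median absolute log2 fold change was 0.15 over the members and 0.20 over all genes. It was 0.21 against 0.30 among genes with a mean of at least 5 and, the other way round, 0.15 against 0.09 among genes with a mean under 5. For 25 members, or 89.3%, the 95% interval of the difference lay within 2-fold in either direction, as it did for 69.2% of all genes. HOX probe sets gave little signal, since 18 of the 28 lay below the level of the median gene, 6.33 on the log2 scale. Among genes with a mean of at least 5, 13.3% of the 15 members and 25.3% of all genes were at least 1.5-fold apart, and among those under 5 the shares were 0 of 13 members and 2.84% of all genes.

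The direction of the differences was mixed. Differences on the log2 scale were positive for 10 members and negative for 18, with 47% of all genes positive, and its median was -0.04 over the members and -0.02 over all genes. The 3 MBD2 arrays all lay above the 3 control arrays for 5 members (17.9%) and all below for 6 (21.4%), against 10.4% and 14.6% of all genes. The groups did not overlap for 39.3% of the members and 25% of all genes, a difference that was not tested. By place in the cluster, the low-numbered genes (paralog groups 1 to 3) had a positive difference in 4 of 5 members, with a median of 0.02. The middle genes (groups 4 to 8) were positive in 3 of 11, with a median of -0.06, and the high-numbered genes (groups 9 to 13) in 3 of 12, with a median of -0.04. When the arrays were centred on 18 housekeeping genes, the median of all genes moved by -0.19, 6 of the 28 members were positive and the median of the members was -0.23. Before centring, these 18 genes had a median log2 fold change of 0.22 themselves. All MBD2 arrays lay above the controls for 5 of them and below for 2, so the centring carries their own differences into every gene.

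**Figure D1:**
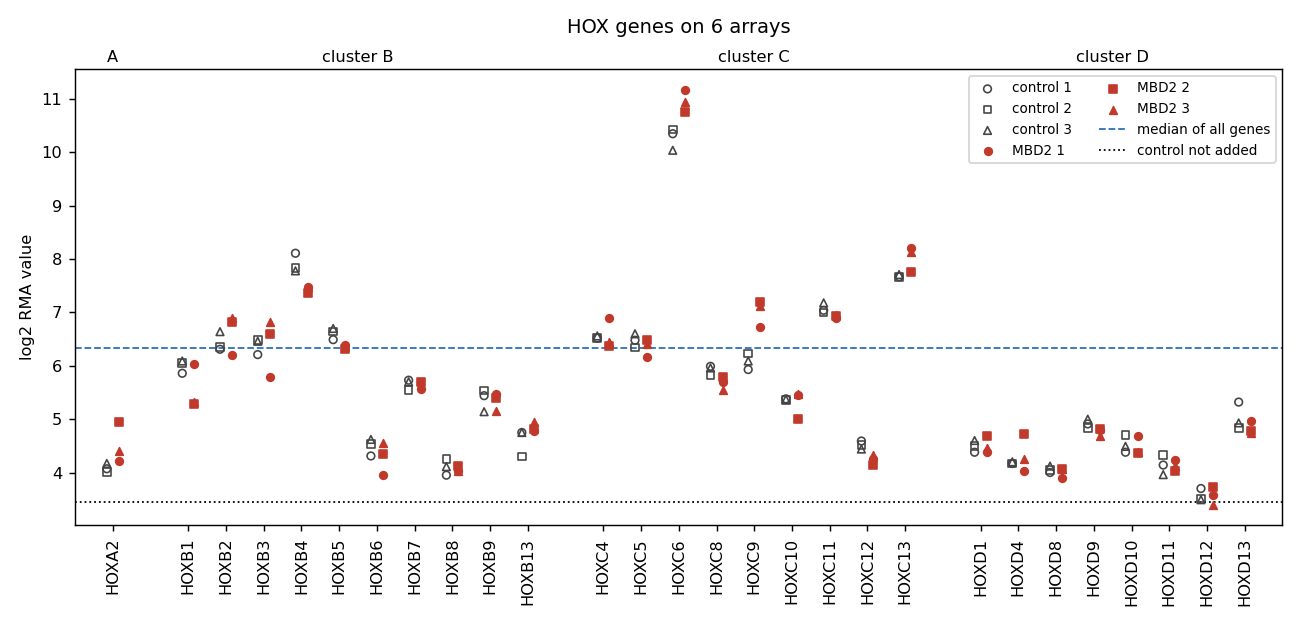
Log2 level of each of the 28 HOX genes on the 3 control arrays (open grey) and the 3 MBD2 arrays (filled red), ordered by cluster and position. The dashed line marks the median gene at 6.33 and the dotted line the highest level of a control transcript that was not added, 3.45, and 18 members lie below the dashed line.

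**Figure D2:**
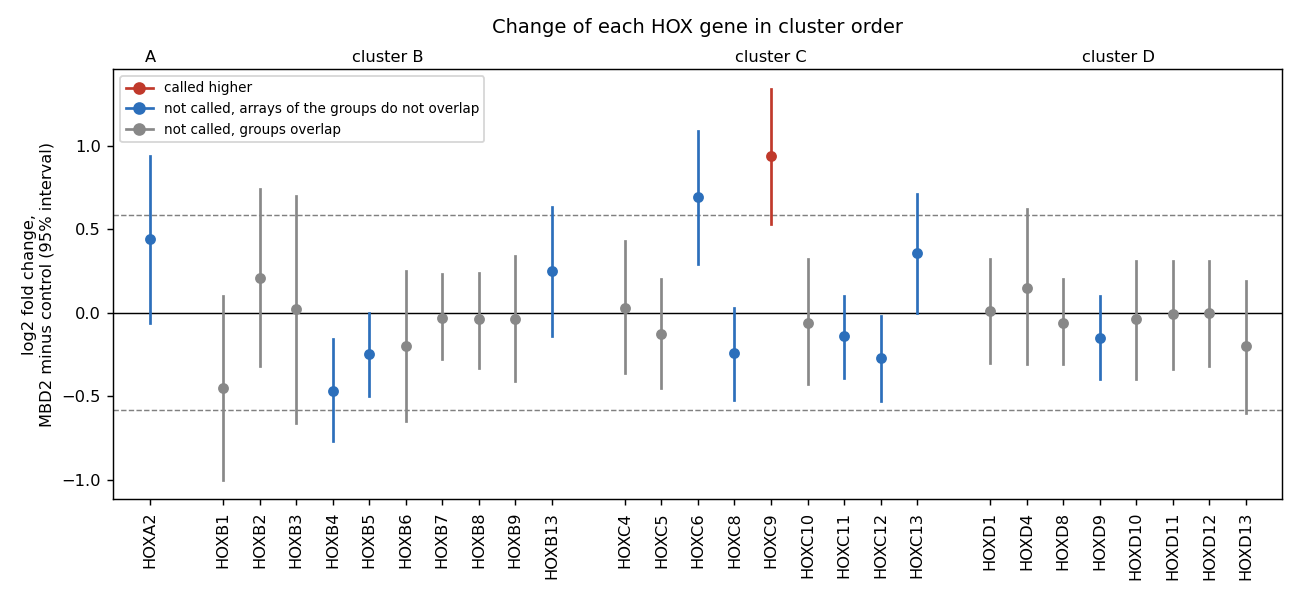
Log2 fold change (MBD2 minus control) of each HOX gene with its 95% interval, ordered by cluster and position, with dashed lines at 1.5-fold. HOXC9, in red, is the only gene called, blue genes have groups that do not overlap but were not called, and grey genes overlap.

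The plot of levels by cluster places all 8 D cluster genes under the median gene, as a description of signal on the array and not of transcript number. In the plot of differences HOXB4 to HOXB9 and HOXC10 to HOXC12 were all negative, whereas HOXC9 lay between HOXC8 and HOXC10, both negative. The C cluster had 4 positive and 5 negative differences with a median of -0.06, the B cluster 3 positive and 7 negative with a median of -0.04, and the D cluster 2 positive and 6 negative with a median of -0.03.

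HOXC9, a posterior gene of the C cluster at chr12:54000161-54003337 (GRCh38.p14), was measured by 1 probe set. Its log2 values were 5.93, 6.23 and 6.09 in the control arrays and 6.73, 7.20 and 7.12 in the MBD2 arrays. Every MBD2 array lay above every control array, and MBD2 array 1 was the lowest of its group. Control arrays averaged 6.08 ± 0.15 (SD, n = 3) and MBD2 arrays 7.02 ± 0.25 (SD, n = 3), which gives a log2 fold change of 0.94, or 1.91-fold, with a 95% interval of 0.53 to 1.34 (SE 0.16, adjusted p = 0.0488, limma). The difference lay between 0.75 and 1.08 in the 14 other settings tried. Leaving out or averaging arrays could not turn its sign, since the groups do not overlap. Settings that changed only the probe sets, the genes tested or the fit gave the same 0.94. The call was kept in 4 of the settings and lost in 10. The adjusted p was 0.00777 without MBD2 array 1. Leaving out control array 1, 2 or 3 gave adjusted p of 0.191, 0.152 and 0.0816, and leaving out MBD2 array 2 or 3 gave 0.161 and 0.215. Over all genes, 29, 19 and 692 genes were called without control array 1, 2 or 3. Without MBD2 array 1, 2 or 3 the counts were 3026, 93 and 46, against 544 with all arrays. A call lost where few genes of the whole array keep theirs is therefore not particular to HOXC9. Averaging control arrays 1 and 2, and MBD2 arrays 2 and 3, into 1 value each gave a difference of 0.86 and an adjusted p of 0.506, and a replicate block gave 0.0977.

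**Figure D3:**
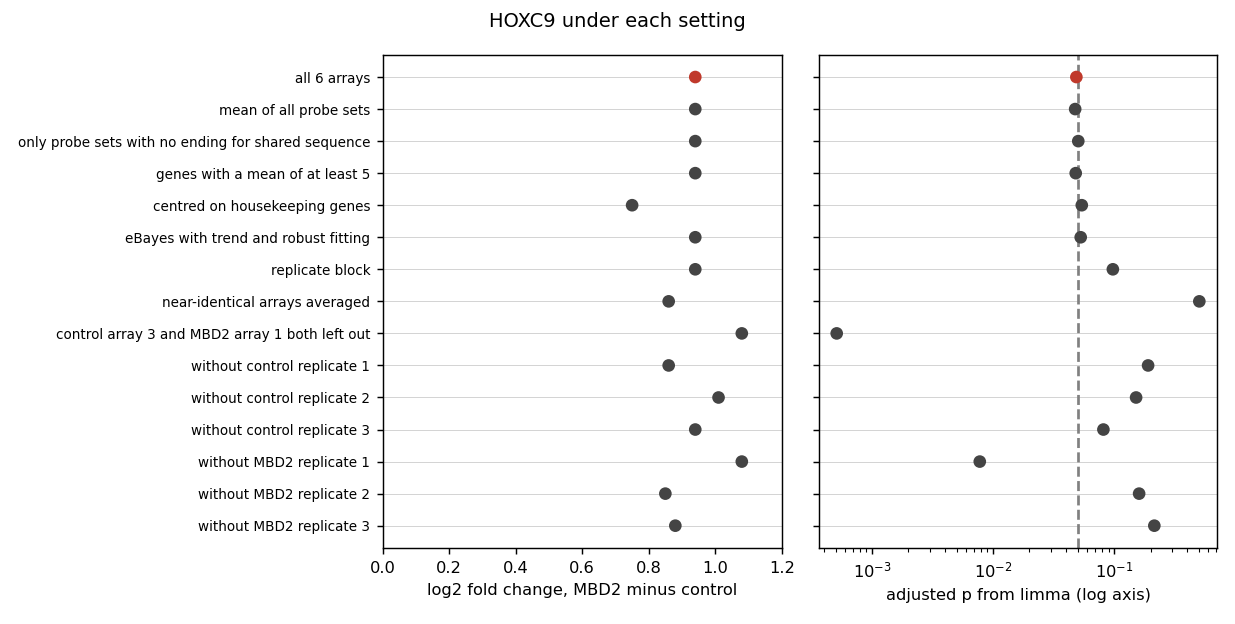
Log2 fold change of HOXC9 and its adjusted p from limma under the reported analysis and 14 other settings, with the threshold of 0.05 marked. The fold change stays between 0.75 and 1.08, while the adjusted p runs from 0.000511 to 0.506 and lies on either side of the threshold.

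HOXC6, a thoracic gene at chr12:54016888-54030823, was well above background. Its values were 10.35, 10.43 and 10.04 in the control arrays and 11.17, 10.76 and 10.94 in the MBD2 arrays. The groups did not overlap, and MBD2 array 1 was the highest. For HOXC6 the log2 fold change was 0.69, or 1.61-fold (SE 0.16, 95% interval 0.29 to 1.09, unadjusted p = 0.00567, adjusted p = 0.0992, limma), and it lay between 0.47 and 0.80 in 13 other settings, in none of which HOXC6 was called. Without control array 3 and MBD2 array 1 its adjusted p was 0.0181, but the difference of 0.47 was under 1.5-fold. Its probe set has an ending that marks sequence shared between transcripts, and HOXC4, HOXC5 and HOXC6 overlap by 13936 bases.

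HOXC4 and HOXC5, which begin at the start printed above, gave differences near 0. The values of HOXC4 were 6.52, 6.52 and 6.56 in the control arrays and 6.89, 6.37 and 6.44 in the MBD2 arrays. MBD2 array 1 lay above all controls and the other MBD2 arrays below them. The log2 fold change was 0.03 (95% interval -0.36 to 0.43). HOXC5 was at 6.48, 6.34 and 6.60 in the control arrays and at 6.16, 6.49 and 6.40 in the MBD2 arrays. Its groups overlapped, with a log2 fold change of -0.13 (95% interval -0.45 to 0.20). HOXC5, with annotated bases 54016888 to 54035361, and HOXC4, to 54056030, share 18474 bases.

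The 5' end of the C cluster held 1 gene with higher and several with lower values in the MBD2 arrays, none of which were called. HOXC13, at chr12:53938831-53946544, a gene known for its role in hair and nail keratins, had values of 7.67, 7.66 and 7.71 in the control arrays and of 8.21, 7.76 and 8.14 in the MBD2 arrays. The controls spread by little and all MBD2 arrays lay above them, MBD2 array 2 only just. HOXC13 had a log2 fold change of 0.36 (SE 0.15, adjusted p = 0.277, limma), and it was 0.17 with centring on housekeeping genes. HOXC12, a posterior gene beside it, had values of 4.59, 4.51 and 4.44 in the control arrays and of 4.25, 4.14 and 4.33 in the MBD2 arrays. All MBD2 arrays lay below the controls, with a log2 fold change of -0.27 (unadjusted p = 0.0398, adjusted p = 0.246, limma).

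HOXC11, at 7.04, 7.0 and 7.18 in the control arrays and 6.90, 6.93 and 6.96 in the MBD2 arrays, had a log2 fold change of -0.14 (adjusted p = 0.513, limma). All MBD2 arrays lay below the controls. HOXC8, a gene of the thoracic region next to HOXC9 at chr12:54008985-54012769, was named after its values were seen, because it lies between HOXC9 and HOXC6. It was at 5.99, 5.83 and 5.96 in the control arrays and 5.70, 5.79 and 5.54 in the MBD2 arrays, with a log2 fold change of -0.24 (95% interval -0.52 to 0.03, adjusted p = 0.322, limma). All MBD2 arrays of HOXC8 lay below the controls, so that its difference had the opposite sign to those of HOXC9 and HOXC6. HOXC10 had a log2 fold change of -0.06.

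In the B cluster HOXB4, known for its role in blood stem cells, had the largest negative difference of the 28 members. Its values were 8.11, 7.83 and 7.78 in the control arrays and 7.47, 7.36 and 7.48 in the MBD2 arrays. The groups did not overlap and the MBD2 arrays were close together. HOXB4 had a log2 fold change of -0.47, or 1.38-fold lower (SE 0.12, 95% interval -0.77 to -0.16, unadjusted p = 0.00974, adjusted p = 0.128, limma), and between -0.65 and -0.37 in the other settings. It was called in none of these, although its adjusted p fell to 0.0141 without control array 3 and MBD2 array 1, where its difference of -0.54 was under 1.5-fold. HOXB4, at chr17:48575507-48578350, lies within the annotated bounds of HOXB3.

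HOXB5, the next gene, had values of 6.49, 6.64 and 6.70 in the control arrays and 6.39, 6.31 and 6.38 in the MBD2 arrays. All MBD2 arrays lay below the controls, with a log2 fold change of -0.25 (adjusted p = 0.28, limma). A second probe set of HOXB5, with a lower mean, differed by 0.15. HOXB13, a posterior gene known in prostate, had all MBD2 arrays above the controls and a log2 fold change of 0.25 (adjusted p = 0.463, limma), while its other probe set differed by -0.18. HOXB7, HOXB8 and HOXB9 had log2 fold changes of -0.03, -0.04 and -0.04.

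The 3 anterior genes of the B cluster split the MBD2 arrays in the probe sets used. HOXB2, a hindbrain gene, was at 6.31, 6.35 and 6.64 in the control arrays and at 6.21, 6.83 and 6.89 in the MBD2 arrays. HOXB3 was at 6.21, 6.48 and 6.46 in the control arrays and at 5.79, 6.59 and 6.82 in the MBD2 arrays. In both genes MBD2 array 1 lay below all controls, whereas MBD2 arrays 2 and 3 lay above them. A second, dimmer probe set of HOXB3 showed no such split, at 5.69, 5.68 and 5.64 in MBD2 arrays 1 to 3. HOXB2 had a log2 fold change of 0.21 (adjusted p = 0.661, limma; 0.53 and 0.00684 without control array 3 and MBD2 array 1, which is under 1.5-fold) and HOXB3 one of 0.02 (95% interval -0.66 to 0.70), and that of HOXB3 turned to -0.17 with centring on housekeeping genes.

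HOXB1, which acts in the hindbrain and was named after its values were seen, split the other way. It was at 5.86, 6.05 and 6.09 in the control arrays and at 6.03, 5.28 and 5.33 in the MBD2 arrays. MBD2 array 1 lay among the controls and MBD2 arrays 2 and 3 below them. The log2 fold change was -0.45 (SE 0.23, adjusted p = 0.354, limma), and HOXB1 was called lower without MBD2 array 1, at -0.69 (adjusted p = 0.0195), and with control array 3 also left out, at -0.65 (adjusted p = 0.00382). Over all genes these settings called 3026 and 5409 genes, against 544 with all arrays, and 5.68% and 10.7% of all genes were called lower. A second probe set of HOXB1, near background, did not share its split. There MBD2 array 1 was the lowest of its group, at 3.59 against 3.70 and 3.79.

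HOXA2, a gene of the second branchial arch and hindbrain at chr7:27100354-27102683, was also named after its values were seen. It was at 4.07, 4.01 and 4.17 in the control arrays and at 4.21, 4.94 and 4.41 in the MBD2 arrays. All MBD2 arrays lay above the controls, MBD2 array 1 by little. The control values of HOXA2 were only a little above 3.95, the limit used here for values near background. The log2 fold change was 0.44 (SE 0.20, adjusted p = 0.326, limma), and HOXA2 was called higher at 0.64 (adjusted p = 0.0232) without control array 3 and MBD2 array 1, a setting in which 16.7% of all genes were called higher.

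**Figure D4:**
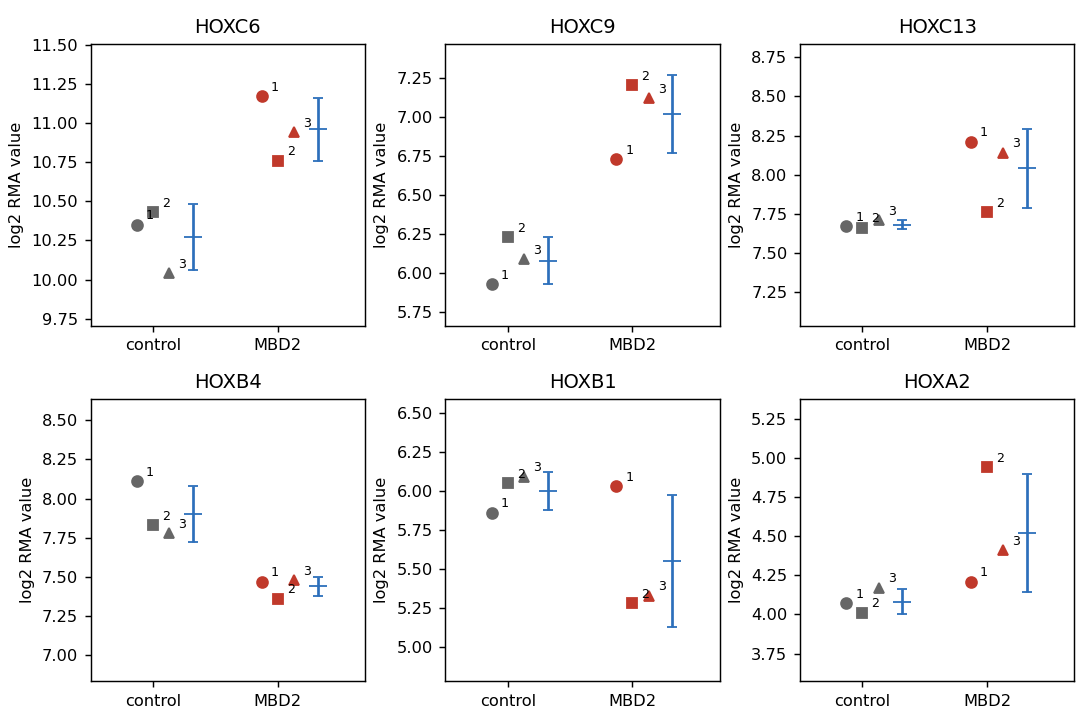
Log2 values of HOXC6, HOXC9, HOXC13, HOXB4, HOXB1 and HOXA2 on each of the 6 arrays, with the mean ± SD of each group in blue. In HOXC9 and HOXC6 the 3 MBD2 arrays lie above the controls, in HOXB4 below them, and in HOXB1 MBD2 array 1 lies among the controls.

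The arrays within a group differed for these genes as the plot of values by array shows. No member was 1.5-fold apart between any pair of control arrays or between MBD2 arrays 2 and 3. Between MBD2 arrays 1 and 2, 5 members were, namely HOXA2, HOXB1, HOXB2, HOXB3 and HOXD4, and between MBD2 arrays 1 and 3, 4 members were, namely HOXB1, HOXB2, HOXB3 and HOXB6. Of all genes, 14.5% and 13% were more than 2-fold apart in these 2 pairs. Control array 3 was more than 2-fold from control arrays 1 and 2 at 7.95% and 7.94% of all genes. The all-gene shares at 1.5-fold, which can only be equal or larger, were not counted. The member counts thus have no like share beside them and cannot be read as a trait of the HOX genes. MBD2 arrays 2 and 3 are those with the low hybridization controls, and MBD2 array 1 is the array with the highest average of the fibroblast markers. The 8 fibroblast markers averaged 8.10 on MBD2 array 1, against 6.35 and 6.62 on MBD2 arrays 2 and 3. Of these, 3 were picked after their values were seen. DCN, a matrix proteoglycan, was at 12.57 on MBD2 array 1 and at 7.59 and 8.54 on the others, LUM at 9.63 against 4.03 and 6.27, and COL3A1 at 8.90 against 4.99 and 4.92. The remaining markers of the list did not follow. COL1A2 was lowest on MBD2 array 1, at 5.92 against 6.54 and 6.25, and COL1A1 was at 10.60 against 10.61 and 9.75. THY1, PDGFRA and PDGFRB differed little between the MBD2 arrays. The part of the hybridization controls and of the fibroblast markers in the split was not tested.

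All 8 D cluster genes lay below the median gene, and their log2 fold changes ran from -0.20 for HOXD13, a gene of the digits, to 0.15 for HOXD4, whose other probe set differed by -0.20 with all MBD2 arrays below the controls. In the probe sets used, HOXD9 was the only D cluster gene whose groups did not overlap. All its MBD2 arrays lay below the controls, with a log2 fold change of -0.15 (adjusted p = 0.48, limma). The other probe set of HOXD9 had overlapping groups and a log2 fold change of 0. A dimmer probe set of HOXD13 differed by -0.28, with all MBD2 arrays below the controls. HOXD12 was within 0.5 of the level of the control transcript that was not added on all arrays, so its values give only a bound. Of the probe sets shared between HOXD4 and HOXD3, 3 in all, the log2 fold changes were -0.13, -0.42 and -0.04. In the second the MBD2 arrays, at 3.54, 3.55 and 3.64, all lay below the controls, at 4.10, 3.91 and 4.0 (unadjusted p = 0.00464, limma), and its MBD2 values are within 0.5 of the control transcript that was not added.

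HOXB6 was named outside the rule for values by array, after its values were seen. It is the only member in the study's list of genes that MBD2 repressed and that are also predicted targets of hsa-miR-496. That list was chosen on these same arrays, and predicted targets that the study did not find repressed are not on it. The mature sequence of hsa-miR-496 at chr14:101060628-101060649 (GRCh38.p14, plus strand) is shown with its seed, bases 2 to 8, in capitals, since that is the part that pairs with targets.
hsa-miR-496: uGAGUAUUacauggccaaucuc
HOXB6 was at 4.31, 4.54 and 4.62 in the control arrays and at 3.96, 4.35 and 4.55 in the MBD2 arrays. The groups overlapped, with a log2 fold change of -0.20 (SE 0.18, 95% interval -0.65 to 0.25, adjusted p = 0.616, limma). The other probe set of HOXB6 differed by -0.14. HOXB6 was thus not called lower here. The study counted it as repressed under another rule, which asked for a smaller change than the 1.5-fold used here. The outcomes therefore rest on unlike thresholds.

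Genes that work with the HOX genes, or lie beside them, were examined as lists, by their counts and medians, beside the shares over all genes of 1.25% called higher, 1.5% called lower, 8.69% with an unadjusted p under 0.05 in the higher direction and 9.59% in the lower one, and 10.4% with all MBD2 arrays above and 14.6% with all below. Of the 10 TALE cofactors 9 were measured, 0 were called, and the median log2 fold change was -0.23, against -0.02 over all genes. At an unadjusted p under 0.05, 3 of the 9 were higher and 1 was lower. PBX3, a partner that raises the binding of HOX proteins, was at 7.55, 7.41 and 7.61 in the control arrays and at 8.03, 9.12 and 9.08 in the MBD2 arrays, with a log2 fold change of 1.22 (adjusted p = 0.115, limma). MBD2 arrays 2 and 3 were far above MBD2 array 1. MEIS2 differed by 0.80 (adjusted p = 0.105) and MEIS1 by -0.82 (adjusted p = 0.312, limma). With the probe sets of each gene averaged, the median of this list was 0.02.

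Of 25 Polycomb genes 21 were measured, 1 was called higher and 0 were called lower. All MBD2 arrays lay above the controls for 10 of the 21 (10.4% of all genes) and below for 0 (14.6%). The called gene was PHC2, a subunit of the canonical PRC1 complex, at 8.29, 8.14 and 8.43 in the control arrays and 9.27, 9.46 and 9.43 in the MBD2 arrays. The groups lay well apart, with a log2 fold change of 1.10 (SE 0.12, adjusted p = 0.0162, limma). Averaging its probe sets gave 0.55 (adjusted p = 0.0957). The call was also lost when control array 1 or 2 was left out (adjusted p = 0.0901 and 0.0915), when MBD2 array 2 or 3 was left out (0.0736 and 0.0953), with a replicate block (0.0917) and with the near-identical arrays averaged (0.391). In each of these last settings 0.47% of all genes or fewer were called, against 2.75% with all arrays. The median of the list was 0.36, or 0.19 once probe sets were averaged and 0.17 after centring on housekeeping genes. PHF1, RYBP, CBX2 and SUZ12 had log2 fold changes of 1.02, 0.60, 0.60 and 0.86 with adjusted p of 0.0616, 0.0744, 0.0896 and 0.0912 (limma).

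Of 18 trithorax and activator genes 17 were measured, 0 were called, and the median was 0. KDM6B, which removes the Polycomb mark, differed by -0.39 (adjusted p = 0.122, limma). Retinoic acid is a known inducer of anterior HOX genes. Of 10 genes of its receptors, binding proteins and CYP26 enzymes 9 were measured, 0 were called and the median was -0.27. CRABP2, a carrier of retinoic acid, was at 9.06, 9.13 and 11.39 in the control arrays and at 6.78, 6.67 and 6.40 in the MBD2 arrays. Control array 3 stood far above the other controls and all MBD2 arrays lay below them. CRABP2 differed by -3.24 on the log2 scale (SE 0.64, adjusted p = 0.0653, limma).

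The list of noncoding RNAs of the clusters, which also holds the protein gene PRAC1, had 12 of 20 members measured, of which 0 were called and 10 were negative, with a median of -0.15. HOTTIP, transcribed from the 5' end of the A cluster, was at 7.56, 7.36 and 7.23 in the control arrays and at 6.99, 6.81 and 6.93 in the MBD2 arrays. All MBD2 arrays lay below the controls, with a log2 fold change of -0.48 (SE 0.13, adjusted p = 0.125, limma). HOTAIR, transcribed within the C cluster between HOXC11 and HOXC12, was at 3.14, 3.24 and 3.09 in the control arrays and at 3.78, 3.62 and 3.95 in the MBD2 arrays. The controls lay below the highest level of the control transcript that was not added, 3.45, so the log2 fold change of 0.63 (adjusted p = 0.0635, limma) rests on values near background.

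Of 20 flanking genes of the clusters 19 were measured, and JAZF1, a zinc finger gene near the A cluster, was called higher. It was at 7.20, 6.97 and 7.46 in the control arrays and at 8.05, 8.43 and 8.39 in the MBD2 arrays. The groups did not overlap, with a log2 fold change of 1.08 (SE 0.18, adjusted p = 0.0411, limma). Averaging its probe sets gave 0.79 (adjusted p = 0.187). The call was also lost with trend and robust fitting (adjusted p = 0.0663), with a replicate block (0.115), with the near-identical arrays averaged (0.518), when control array 1 or 2 was left out (0.169 and 0.152) and when MBD2 array 2 or 3 was left out (0.148 and 0.189). Trend and robust fitting called 2.14% of all genes, and each of the settings named after it 0.47% or less, against 2.75% in the main fit. The median of the list was -0.06. SNX10, on the other side of the A cluster, had the largest difference of the list, 2.75 (adjusted p = 0.123, limma), with MBD2 arrays 2 and 3 at 9.10 and 9.28 and MBD2 array 1 at 6.65. Of 40 other homeobox genes 37 were measured, 0 were called and the median was -0.10, with IRX3 at -1.95 (adjusted p = 0.0686) and MSX1 at 1.24 (adjusted p = 0.0759, limma).

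**Figure D5:**
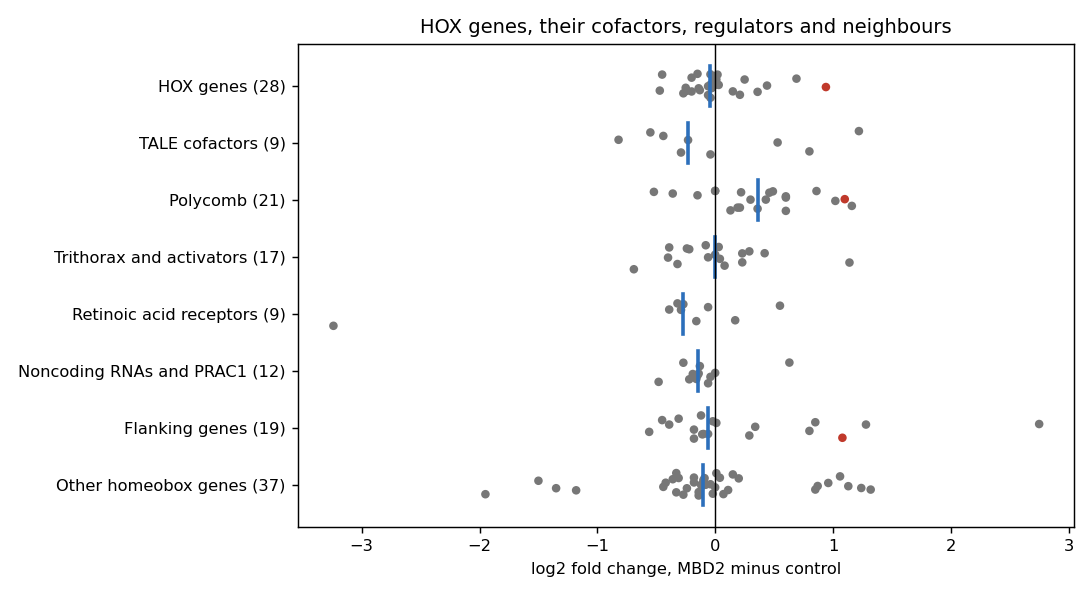
Log2 fold change of each gene in the HOX members and the 7 lists of cofactors, regulators, noncoding RNAs, neighbours and other homeobox genes, with the median of each as a blue bar and called genes in red. HOXC9, PHC2 and JAZF1 are the called genes, and the Polycomb list has the highest median, 0.36.

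Set side by side in the plot of the lists, the HOX genes ran from -0.47 to 0.94 and the other homeobox genes from -1.95 to 1.32. The list of noncoding RNAs ran from -0.48 to 0.63 and the Polycomb list from -0.52 to 1.16. A range of this width is thus not particular to the HOX genes, and such ranges also depend on the number of genes in a list.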

How the data were processed

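Values are log2 intensities of probe sets as deposited, made by the authors with RMA (affy package, versions not given in the sources used here) from Affymetrix Human Genome U133 Plus 2.0 arrays, after one-cycle labelling. RMA pulls dim probe sets together, which limits the differences they can show. Of 54675 probe sets, 41091 had 1 symbol and 1801 had several. The highest-mean probe set of each gene was kept, giving 19775 genes, and coordinates are from RefSeq, GRCh38.p14. Groups were compared by limma 3.58.1 under R 4.3.3 (lmFit on group alone, eBayes, 1.96 prior degrees of freedom) with Benjamini-Hochberg adjustment over all genes. Log2 fold changes are MBD2 minus control means. The fit was tested on simulated data. The members and lists were chosen with earlier results of these data known. Values for every array are given for members with a mean of at least 6 in either group or an unadjusted p under 0.05 (11 genes), and for others named as chosen after their values were seen. In each list, called genes and up to 5 with the lowest p could be named. Precision is limited by the number of arrays. The limit of 0.5 over the highest control for a transcript that was not added came from an earlier look at the data. The replicate numbers did not pair the arrays. Alternatives are given in the closing section.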

Additional observations from a re-analysis of the deposited data

How the results depend on the processing

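The number of HOX genes called higher, 1, was 0 with only probe sets whose names carry no ending for shared sequence, with centring on housekeeping genes, with trend and robust fitting, with a replicate block and with the near-identical arrays averaged. It was 2 (HOXA2 and HOXC9) without control array 3 and MBD2 array 1, where 16.7% of all genes were called higher, and it ran from 0 to 1 with single arrays left out. The number called lower, 0, was 1 (HOXB1) without control array 3 and MBD2 array 1, where 10.7% of all genes were called lower, and it ran from 0 to 1 when each array was left out. Among cofactors, regulators, noncoding RNAs and neighbours, for which the alternatives were chosen after seeing the data, the number called, 2, was 0 with the mean of all probe sets, a replicate block or averaging, 4 with a mean of at least 5 or with centring, 34 without both arrays, and 0 to 23 with each array left out. The 34 are 39.1% of the 87 genes, where 27.4% of all genes were called, and the 23, without MBD2 array 1, are 26.4%, where 15.3% were. Same-numbered arrays correlated at 0.17, -0.27 and 0.21 in their deviations from the group means, and the block called 12 genes higher and 51 lower over the whole array, against 248 and 296. Averaging called 0 genes higher or lower (limma, 1507 at an unadjusted p under 0.05). HOXC9 lost its call in 10 of 14 settings, with adjusted p of 0.0506 for probe sets with no shared ending, 0.0541 with centring and 0.053 with trend and robust fitting. HOXB3, at 0.02, was -0.03 with the mean of all probe sets, -0.17 with centring, -0.15 with averaging and -0.19 to 0.32 with each array left out. HOXC4, at 0.03, was -0.15 with centring, -0.11 without both arrays and -0.13 to 0.13 with each array left out. HOXC5, at -0.13, was 0.03 without both arrays. Where values changed, the cause was not tested. No minimum fold, and the rule of the methods, gave the same counts of HOX genes. Probe sets with several symbols gave no other value, since none held a single HOX gene.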
